A study of Mus musculus with 8 samples.

Results

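A set of 10 genes of the pathway that turns membrane phospholipids into prostaglandins and leukotrienes was followed across 3 groups of mouse colonic tumors: the phospholipases Pla2g2a, Pla2g4a, Pla2g4c and Pla2g10, the prostaglandin genes Ptgs1, Ptgs2, Ptges and Hpgd, and the lipoxygenases Alox5 and Alox15. A gene was taken where a probe set of the array was annotated with its symbol alone. This held for 9 of the 10 genes, among 19938 genes measured in all, and each of the 9 had 1 probe set. Where a gene had several, the probe set was to be chosen by the highest mean over all arrays, so no measured value decided among probe sets here; the list of genes itself was picked with earlier results of these data on hand, and counts over it are descriptions. Ptgs1 was not analysed here.

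Expression was measured on 8 Affymetrix MoGene 1.0 ST arrays, 1 per tumor, and deposited as RMA log2 signals. Of these tumors, 3 came from the distal colon of K-rasG12Dint mice and 2 from the distal colon of LSL-K-rasG12D/+ mice, and all 5 were induced with azoxymethane (AOM), a colon carcinogen. The other 3 were serrated tumors of the proximal colon of K-rasG12Dint/Ink4a/Arf-/- mice, with no AOM on their labels. LSL is the usual name of a removable stop cassette that keeps an allele silent until Cre recombinase acts, and the titles of the LSL-K-rasG12D/+ samples call them wt. All 3 genotypes thus carry a K-ras allele by name, and no normal colon was among the samples. The labels give neither the Cre driver nor the strain, sex or age of the mice. The type of tumor, the carcinogen, the segment of colon and the Ink4a/Arf genotype change together between the serrated and the AOM tumors and cannot be told apart. Whether the tumors of a group came from separate mice is not stated, so p-values measure only the spread between these samples, which may be technical.

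Array medians over all genes lay between 4.17 and 4.31 on the log2 scale. Serrated replicate 1 stood apart by a narrower spread over genes, with an SD of 1.77 against 2.00 to 2.13 on the other 7 arrays. The colonocyte gene Car1 was at 10.42 or higher on every array. Cdkn2a, the gene of the Ink4a/Arf locus, read 4.01, 3.79 and 3.37 in the serrated tumors, 5.39, 6.21 and 5.95 in the K-rasG12Dint AOM tumors and 3.59 and 4.28 in the LSL-K-rasG12D/+ AOM tumors. The serrated and LSL-K-rasG12D/+ values overlapped, and where the Cdkn2a probes lie relative to the deleted part is not known here, so they do not check the labels.

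Phospholipases A2 free fatty acids such as arachidonic acid from membrane phospholipids. Cyclooxygenases, encoded by Ptgs1 and Ptgs2, turn arachidonic acid into prostaglandin H2, from which synthases such as the product of Ptges make prostaglandin E2, and the dehydrogenase encoded by Hpgd breaks prostaglandins down. Lipoxygenases use the same fatty acid to make leukotrienes and hydroxylated fatty acids. In the intestine the cyclooxygenase branch is known for its part in adenoma growth, and secreted phospholipases for a place in antibacterial defence at the epithelium.

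The start regions of the members that rose in the serrated tumors (Pla2g4c, Pla2g10 and Hpgd) and of Ptgs2, the inducible enzyme of the pathway, are shown first so that the letters around their starts can be read beside the levels. Each runs from 250 bases before to 50 bases after a RefSeq transcription start (assembly GRCm38.p6), read 5′ to 3′ on the strand of the gene. RefSeq start windows were on hand for 7 of the 9 measured genes, 9 windows in all; the genes without one were Pla2g2a and Alox15. Pla2g4c has 2 starts on the plus strand of chromosome 7, at chr7:13325417-13325716 (window 1) and chr7:13329072-13329371 (window 2). The Pla2g10 window is chr16:13730435-13730734 on the minus strand, that of Hpgd is chr8:56294302-56294601 on the plus strand, and that of Ptgs2 is chr1:150099781-150100080 on the plus strand. Capitals mark a match to one of the 7 motifs searched on both strands.
Pla2g4c window 1: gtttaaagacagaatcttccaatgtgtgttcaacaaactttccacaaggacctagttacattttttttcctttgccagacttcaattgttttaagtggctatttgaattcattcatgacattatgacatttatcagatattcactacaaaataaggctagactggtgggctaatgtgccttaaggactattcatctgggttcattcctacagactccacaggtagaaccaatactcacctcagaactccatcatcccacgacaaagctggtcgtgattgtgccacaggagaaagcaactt
Pla2g4c window 2: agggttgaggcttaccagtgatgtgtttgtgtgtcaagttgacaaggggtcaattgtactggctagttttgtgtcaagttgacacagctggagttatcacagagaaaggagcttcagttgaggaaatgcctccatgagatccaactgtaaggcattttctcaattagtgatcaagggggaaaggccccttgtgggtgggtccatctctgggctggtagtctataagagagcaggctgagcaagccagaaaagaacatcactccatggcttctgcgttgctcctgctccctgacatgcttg
Pla2g10: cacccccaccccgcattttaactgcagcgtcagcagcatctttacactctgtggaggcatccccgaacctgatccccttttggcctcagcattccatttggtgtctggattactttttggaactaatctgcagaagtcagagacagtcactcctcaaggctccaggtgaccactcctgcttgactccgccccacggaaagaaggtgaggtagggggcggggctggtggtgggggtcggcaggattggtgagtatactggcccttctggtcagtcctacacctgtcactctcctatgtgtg
Hpgd: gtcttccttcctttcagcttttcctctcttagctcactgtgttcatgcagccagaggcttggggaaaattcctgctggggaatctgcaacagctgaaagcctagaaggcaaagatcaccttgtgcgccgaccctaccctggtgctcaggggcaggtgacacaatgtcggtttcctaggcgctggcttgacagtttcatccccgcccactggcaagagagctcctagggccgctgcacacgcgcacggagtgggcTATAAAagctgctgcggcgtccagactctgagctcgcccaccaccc
Ptgs2: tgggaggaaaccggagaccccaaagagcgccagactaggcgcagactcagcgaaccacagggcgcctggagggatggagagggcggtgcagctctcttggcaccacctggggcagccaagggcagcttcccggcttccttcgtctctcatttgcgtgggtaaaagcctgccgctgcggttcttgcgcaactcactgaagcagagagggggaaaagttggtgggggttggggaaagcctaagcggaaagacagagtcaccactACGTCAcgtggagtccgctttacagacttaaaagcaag

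Hpgd carried TATAAA, the letters of the TATA box, from base 5 after its start. Ptgs2 carried ACGTCA, the reverse strand of TGACGT (the core of a cAMP response element), from base 13 after its start. Of all 32851 RefSeq windows of this length, TATAAA was found in 13.6% and TGACGT in 7.51%. The AP-1 motif TGANTCA was found in 7.81% of all windows. The TCF/LEF motif, with the letters CTTTGAT, was found in 3.73% and an HNF4 motif with the letters CAAAGTC in 4.44%. The motif AGATAA of the zinc finger factors named after it was found in 11.2%, and TTTATG, a motif of the CDX factors, in 11.9%. No match overlapped another in the windows printed. Pla2g4c and Pla2g10 held none of the 7 motifs in these windows. A match is a description of the letters only.

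The question the design puts is how serrated tumors differ from AOM tumors, and how the AOM tumors of the K-ras genotypes differ from each other. Differences were tested with limma fitted once to the 8 arrays with a mean for each of the 3 groups, with Benjamini-Hochberg adjustment over all 19938 genes, and a gene passed where its adjusted p was under 0.05. Every adjusted p below is from this test, and an error beside a difference is its standard error (SE). In the serrated tumors, against the mean of both AOM groups, Pla2g4c, Hpgd and Pla2g10 were higher and Pla2g2a was lower, so that 4 of the 9 genes passed. Over all genes 9.38% passed, 3.62% as higher and 5.76% as lower. The median absolute difference of the 9 genes was 1.72 log2 units beside 0.258 over all genes, and their median signed difference was 0.20 beside 0.04.

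**Figure D1:**
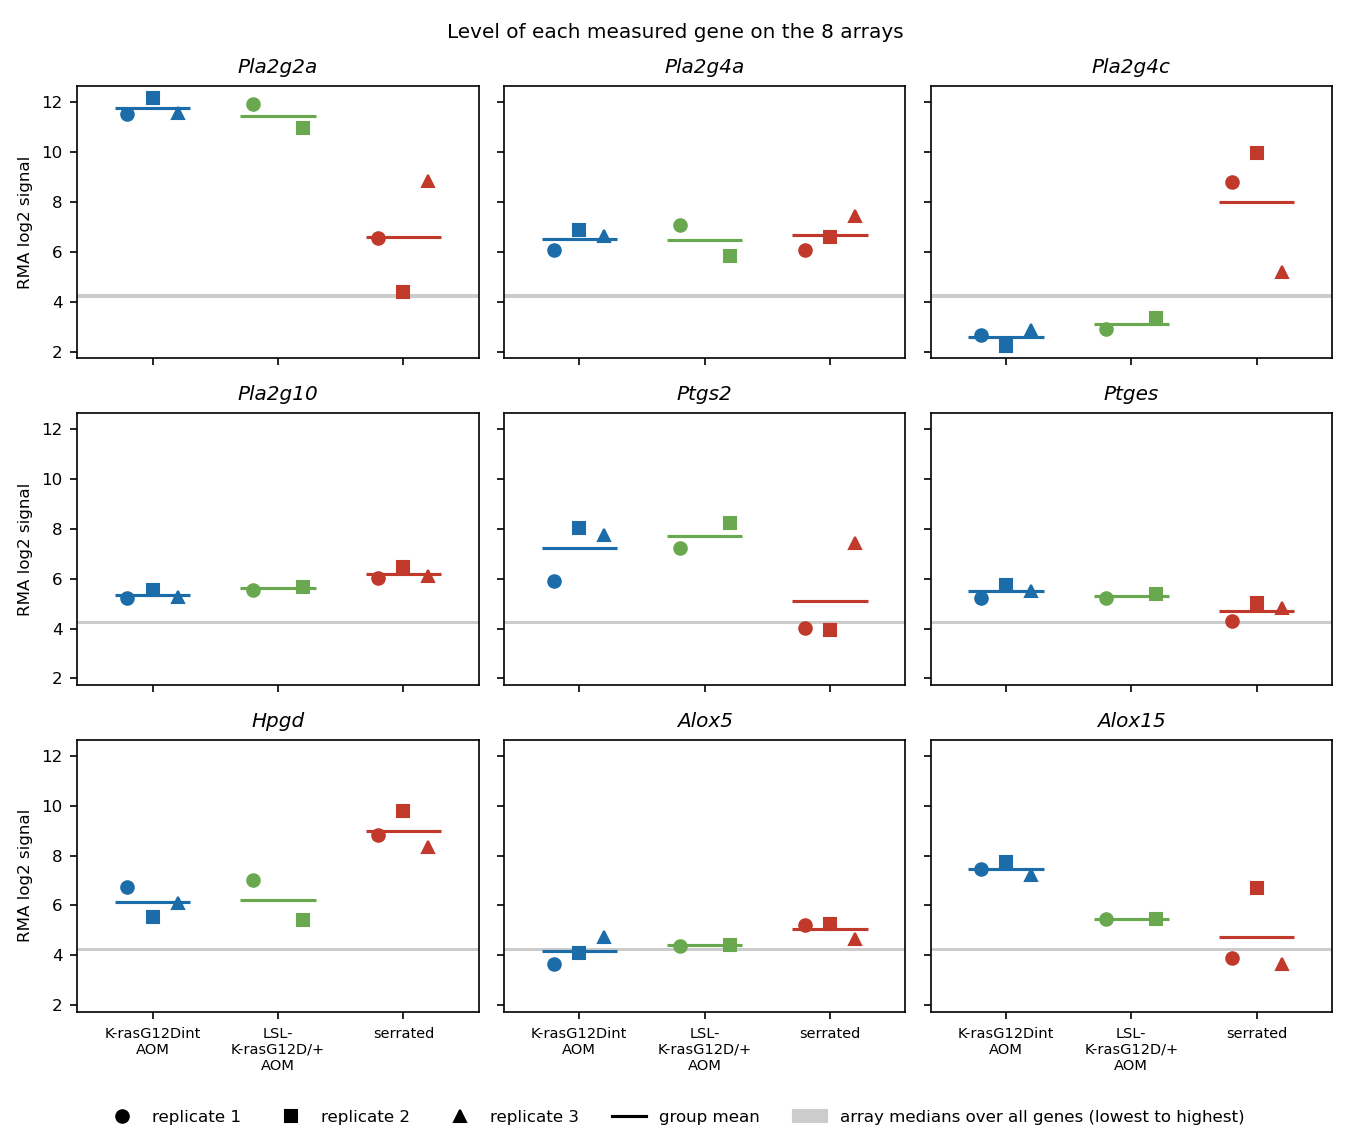
RMA log2 signal (vertical axis) of the 9 measured genes on the 8 arrays, with 1 symbol per array, a line at each group mean and a grey band from the lowest to the highest array median over all genes. The serrated arrays lie below all AOM arrays for Pla2g2a and Ptges and above them for Pla2g4c, Pla2g10 and Hpgd, while 1 serrated array lies within the AOM range for Ptgs2 (replicate 3, at 7.43) and Alox15 (replicate 2, at 6.69).

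Pla2g2a encodes a secreted phospholipase A2 of Paneth cells that modifies tumor number in Apc-mutant mice, where the locus was named Mom1. The gene lies on chromosome 4, and the RefSeq table of the C57BL/6J assembly lists it as a transcribed pseudogene, since that strain carries an inactive allele. Its level was 11.55, 12.16 and 11.59 in the K-rasG12Dint AOM tumors, 11.94 and 10.96 in the LSL-K-rasG12D/+ AOM tumors, and 6.55, 4.38 and 8.86 on the serrated arrays. All 3 serrated values lay below all 5 AOM values, yet they spread over 4.48 log2 units against 1.2 over the AOM arrays. The serrated tumors were lower by a log2 difference of -5.01 ± 0.82 (SE; 95% interval -6.87 to -3.15), about 32.3-fold, with adjusted p = 0.00794. Single serrated arrays moved the size: it was -3.90 without replicate 2, -6.14 without replicate 3 and -6.61 with array weights, and it passed in each case. The SD was 2.24 in the serrated, 0.34 in the K-rasG12Dint and 0.69 in the LSL-K-rasG12D/+ tumors. With 1 spread shared by the groups, the SE and adjusted p are therefore too small, also in these alternatives. The fall ranked 3 among all genes. An array signal shows RNA only, and whether the mice carried the inactive allele is not given.

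Part of a list of Paneth cell markers lay lower beside it, and whether these genes mark Paneth cells in colonic tumors was not tested. Of 5 measured Paneth markers 2 fell, Lyz1 (lysozyme) by -3.50 ± 0.57 (adjusted p = 0.00775) and Mmp7 (matrilysin) by -4.38 ± 0.27 (adjusted p = 0.000102), both on the log2 scale. The mean level of the list was 5.0 to 7.62 on the AOM arrays and 3.82 to 4.97 on the serrated arrays. The groups did not overlap, by a narrow margin. They did not overlap either for the colonocyte and enterocyte, goblet, macrophage and eosinophil lists, nor for 16.2% of all single genes. Within the serrated group Lyz1 (5.05, 4.93 and 5.90) was highest on replicate 3, as Pla2g2a was, whereas Mmp7 (4.13, 3.70 and 3.86) and the list as a whole (4.97, 4.40 and 3.82) were not. Itln1, a lectin of Paneth and goblet cells that did not pass (0.05 log2 units, adjusted p = 0.969), was lowest there (6.99, 6.42 and 3.67). The part of the Paneth cells in the fall of Pla2g2a was not tested. In bulk tumors, fewer cells of a type and less RNA per cell cannot be told apart, here and for every list below.

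Pla2g4c encodes cytosolic phospholipase A2 gamma, a membrane-anchored enzyme that, unlike Pla2g4a, needs no calcium. It read 2.68, 2.22 and 2.88 in the K-rasG12Dint AOM tumors, 2.90 and 3.36 in the LSL-K-rasG12D/+ AOM tumors, and 8.82, 9.99 and 5.18 on the serrated arrays. Every AOM value was below the median gene of its own array, and every serrated value was above it. The rise was 5.14 ± 0.90 log2 units (95% interval 3.10 to 7.17; adjusted p = 0.0102), about 35.2-fold, and ranked 10 among all rises. The size of the fold is uncertain, because the AOM signals were this dim and because single serrated arrays moved it: the rise was 4.14 without replicate 2, 6.54 without replicate 3 and 6.56 with array weights, and it passed in each case. The SD was 2.50 in the serrated tumors and 0.33 in each AOM group, so here too the SE and adjusted p from the shared spread are too small. Serrated replicate 3 was the lowest for Pla2g4c and the highest of the 3 for Pla2g2a.

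Pla2g10, a secreted phospholipase of the colonic epithelium, moved less but evenly. Its levels were 5.22, 5.57 and 5.28 in the K-rasG12Dint AOM tumors, 5.56 and 5.68 in the LSL-K-rasG12D/+ AOM tumors and 6.02, 6.47 and 6.12 on the serrated arrays. The lowest serrated value exceeded the highest AOM value. The rise was 0.72 ± 0.16 log2 units, 1.64-fold, with adjusted p = 0.0297. The call was lost without 1 of 5 arrays: K-rasG12Dint AOM replicate 1 (adjusted p = 0.0776) or 3 (0.0639), LSL-K-rasG12D/+ AOM replicate 1 (0.102) or 2 (0.0777), or serrated replicate 2 (0.136).

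Pla2g4a, the calcium-activated cytosolic enzyme with a preference for arachidonate, did not pass. It read 6.06, 6.89 and 6.63 in the K-rasG12Dint AOM tumors, 7.09 and 5.83 in the LSL-K-rasG12D/+ AOM tumors and 6.06, 6.59 and 7.44 on the serrated arrays. The 3 groups overlapped throughout. The difference was 0.20 ± 0.38 log2 units (95% interval -0.66 to 1.06; adjusted p = 0.767), so a rise of up to 1.06 log2 units lies within the interval.

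Ptgs2, the inducible cyclooxygenase COX-2, read 5.90, 8.03 and 7.76 in the K-rasG12Dint AOM tumors, 7.22 and 8.24 in the LSL-K-rasG12D/+ AOM tumors, and 4.01, 3.93 and 7.43 on the serrated arrays. Serrated replicates 1 and 2 lay below every AOM array and also below the median gene of their own array, whereas replicate 3 lay among the AOM arrays. The difference of -2.36 ± 0.84 log2 units (95% interval -4.26 to -0.46) did not pass (adjusted p = 0.118). Without serrated replicate 3 it was -3.51 with adjusted p = 0.00478, so that 1 tumor decided the call. With arrays weighted by their fit it was -3.01 with adjusted p = 0.00905. The weights were 0.242, 3.15 and 0.38 on serrated replicates 1, 2 and 3. The weighted value thus also gave replicate 3 little part and does not add independent evidence.

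Ptges, the microsomal synthase that makes prostaglandin E2 from the product of the cyclooxygenases, read 5.24, 5.76 and 5.49 in the K-rasG12Dint AOM tumors, 5.22 and 5.40 in the LSL-K-rasG12D/+ AOM tumors and 4.29, 5.01 and 4.81 on the serrated arrays. The groups did not overlap, the difference was -0.70 ± 0.20 log2 units, and it did not pass (adjusted p = 0.0666). Of the 9 genes 5 had groups that did not overlap, beside 16.2% of all genes.

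Hpgd, on the side of breakdown, differed in the opposite direction. The enzyme oxidises prostaglandin E2 to a form that no longer activates its receptors. Its levels were 6.73, 5.52 and 6.12 in the K-rasG12Dint AOM tumors, 7.01 and 5.42 in the LSL-K-rasG12D/+ AOM tumors and 8.82, 9.78 and 8.34 on the serrated arrays. All serrated values were above all AOM values. The rise was 2.81 ± 0.45 log2 units (95% interval 1.79 to 3.83), 7.02-fold, with adjusted p = 0.00729.

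Markers of absorptive cells moved beside Hpgd, Pla2g4c and Pla2g10. Of 9 colonocyte and enterocyte markers 7 rose and 0 fell, among them Krt20, a keratin of mature surface epithelium (2.53 ± 0.49 log2 units, adjusted p = 0.0162), and Guca2a, the gene of guanylin (2.12 ± 0.42, adjusted p = 0.0172). The mean level of the list was 4.55 to 6.88 on the AOM arrays and 8.79 to 9.47 on the serrated arrays. Serrated replicate 2 had the highest list level of all arrays and also the highest Hpgd, Pla2g4c and Pla2g10. Serrated replicate 3 had the lowest list level, Hpgd and Pla2g4c of its group, while Pla2g10 was lowest on serrated replicate 1 (6.02). Among the AOM arrays the highest list level (6.88, K-rasG12Dint replicate 3) came with Hpgd at 6.12. The highest Hpgd there (7.01, LSL-K-rasG12D/+ replicate 1) came with a list level of 6.21. Of 6 goblet markers 2 rose, Clca1 (3.71 ± 0.61 log2 units, adjusted p = 0.00823) among them. The goblet list lay at 6.10 to 9.01 on the AOM arrays and 9.17 to 9.28 on the serrated arrays. The part of these cells in the rises was not tested.

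**Figure D2:**
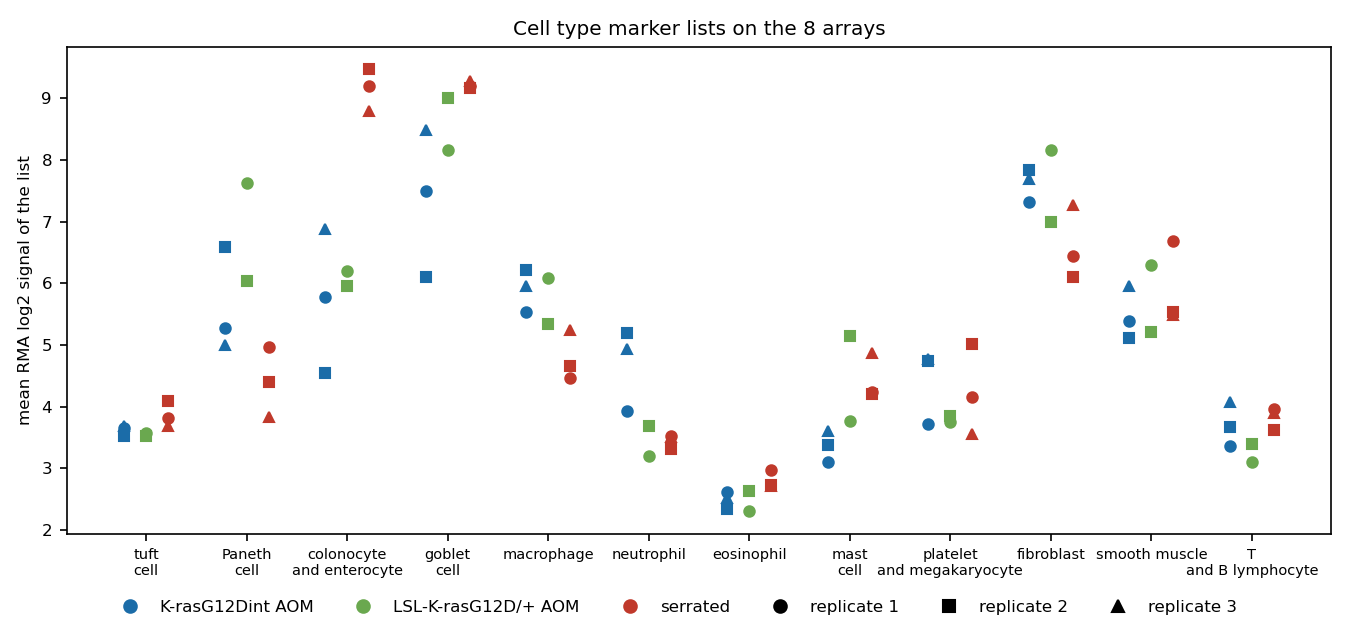
Mean RMA log2 signal (vertical axis) of each of 12 cell type marker lists (horizontal axis) on the 8 arrays, with 1 symbol per array. The colonocyte and enterocyte list separates the serrated arrays (8.79 to 9.47) from the AOM arrays (4.55 to 6.88). The goblet (9.17 to 9.28 against 6.10 to 9.01) and the dim eosinophil list (2.72 to 2.97 against 2.30 to 2.63) also lie higher on the serrated arrays. The Paneth (3.82 to 4.97 against 5.0 to 7.62) and macrophage lists (4.46 to 5.24 against 5.34 to 6.22) lie lower there.

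Alox5, which starts leukotriene synthesis and is found mainly in myeloid cells, was close to the array medians. It read 3.65, 4.11 and 4.73 in the K-rasG12Dint AOM tumors, 4.36 and 4.43 in the LSL-K-rasG12D/+ AOM tumors and 5.20, 5.27 and 4.67 on the serrated arrays. The serrated and AOM values overlapped, and the difference of 0.77 ± 0.26 log2 units did not pass (adjusted p = 0.0991). It passed without K-rasG12Dint AOM replicate 3 (0.91, adjusted p = 0.0461) or serrated replicate 3 (0.96, adjusted p = 0.0399), and with array weights (adjusted p = 0.0134).

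Alox15, whose mouse product oxygenates arachidonic and linoleic acid and is known from eosinophils, macrophages and epithelia, separated the K-rasG12Dint AOM tumors from the other 5 arrays. It read 7.46, 7.75 and 7.22 there, 5.47 and 5.44 in the LSL-K-rasG12D/+ AOM tumors, and 3.91, 6.69 and 3.63 on the serrated arrays. All 3 K-rasG12Dint AOM values lay above the other 5. Serrated replicate 2 lay above both LSL-K-rasG12D/+ tumors and the other 2 serrated tumors lay below them. Against the mean of both AOM groups the serrated tumors differed by -1.72 ± 0.61 log2 units, which did not pass (adjusted p = 0.118), and its size depended on single arrays. It was -2.69 without serrated replicate 2 (adjusted p = 0.00122), -1.17 without serrated replicate 3 (adjusted p = 0.194) and -0.26 with array weights (adjusted p = 0.719).

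Myeloid and stromal markers lay lower in part beside Ptgs2 and Alox15. Of 8 macrophage markers 5 fell, including the complement genes C1qa (-1.21 ± 0.21 log2 units, adjusted p = 0.0103) and C1qb (-1.17 ± 0.23, adjusted p = 0.0168), and the list lay at 5.34 to 6.22 on the AOM arrays and 4.46 to 5.24 on the serrated arrays. Serrated replicate 3, the array with high Ptgs2, had the highest macrophage level (5.24) and the highest fibroblast level (7.27) of its group. The AOM arrays did not follow this order. LSL-K-rasG12D/+ replicate 2 had the highest Ptgs2 of all arrays (8.24) and the lowest macrophage (5.34) and fibroblast (6.99) levels of the AOM arrays. Serrated replicate 2, the highest of its group for Alox15 (6.69), had the lowest fibroblast level (6.10). Of 7 fibroblast markers 3 fell, Col1a1 and Col1a2 among them (-1.47 ± 0.29 and -1.41 ± 0.31 log2 units, adjusted p = 0.0161 and 0.0273). Of 8 neutrophil, 9 mast cell, 6 smooth muscle, 8 lymphocyte and 4 platelet markers, 0 passed in this comparison, and of 10 tuft cell markers 1 rose, Trpm5 (0.81 log2 units, adjusted p = 0.036). Eosinophil markers were near the floor: 4 of 5 (Epx, Prg2, Ccr3 and Il5ra) were below the median gene on all 8 arrays, and 0 of 5 passed. The part of these cells in the levels of Ptgs2 and Alox15 was not tested.

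The serrated tumors were then set against each AOM group alone. These comparisons share the serrated arrays with each other and with the comparison above, so they do not add independent evidence. Against the K-rasG12Dint AOM tumors 5 of the 9 genes passed, where 6.45% of all genes did (2.46% as higher and 3.99% as lower): Pla2g4c (5.40 ± 0.99 log2 units, adjusted p = 0.0164), Hpgd (2.86 ± 0.50, 0.0142) and Pla2g10 (0.85 ± 0.18, 0.0299) rose, and Pla2g2a (-5.17 ± 0.91, 0.0144) and Alox15 (-2.73 ± 0.68, 0.0487) fell. The groups did not overlap for 6 of the 9 genes, where 25.8% of all genes did not. Here 2 of 8 neutrophil markers fell, Ly6g (-1.93 log2 units, adjusted p = 0.0368) and S100a8 (-2.13, 0.0151). Of 9 mast cell markers 1 rose, Mcpt2 (3.38, 0.0326). The part of these cells in the levels of the members was not tested. For Alox15 the call was close to the threshold and was lost in 10 of 14 alternatives, among them array weights (-1.27, adjusted p = 0.0847) and leaving out any single array other than serrated replicate 2. The call was also lost for Pla2g2a without K-rasG12Dint replicate 2 (adjusted p = 0.0683), for Hpgd without K-rasG12Dint replicate 2 (0.0665) or serrated replicate 2 (0.0554), and for Pla2g4c without K-rasG12Dint replicate 1 (0.0567) or 2 (0.0764) or serrated replicate 2 (0.0504). For Pla2g10 it was lost without any single array other than serrated replicate 1 or 3 (adjusted p from 0.0549 to 0.123). Ptgs2 passed only without serrated replicate 3 (-3.26, adjusted p = 0.00995) or with array weights (-2.57, adjusted p = 0.022), and Alox5 without K-rasG12Dint replicate 3 (1.17, adjusted p = 0.0488) or serrated replicate 3 (1.07, adjusted p = 0.0398) or with array weights (1.19, adjusted p = 0.00714).

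Against the LSL-K-rasG12D/+ AOM tumors 3 of the 9 genes passed, where 5.71% of all genes did (2.31% as higher and 3.4% as lower). Pla2g4c (4.87 ± 1.11 log2 units, adjusted p = 0.039) and Hpgd (2.77 ± 0.56, 0.0257) rose and Pla2g2a (-4.86 ± 1.02, 0.0293) fell. The groups did not overlap for 6 of the 9 genes, beside 33% of all genes. The difference in Alox15 was -0.71 ± 0.76 log2 units (95% interval -2.43 to 1.01; adjusted p = 0.645). With only the arrays compared in the fit, none of the 3 calls held (adjusted p = 0.0981 for Pla2g2a, 0.119 for Pla2g4c and 0.0704 for Hpgd). The LSL-K-rasG12D/+ group holds 2 arrays: without either of them Pla2g2a (adjusted p = 0.213 and 0.135) and Pla2g4c (0.236 and 0.188) no longer passed, and Hpgd was lost without LSL-K-rasG12D/+ replicate 2 (0.199) or serrated replicate 2 (0.0791). Pla2g2a and Pla2g4c were lost as well without any 1 K-rasG12Dint array (adjusted p from 0.0517 to 0.0547 and from 0.0669 to 0.0704), and Pla2g4c without serrated replicate 1 (0.0664) or 2 (0.0945). Ptgs2 passed without serrated replicate 3 (-3.77, adjusted p = 0.0104) and Alox15 without serrated replicate 2 (-1.68, adjusted p = 0.0182).

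**Figure D3:**
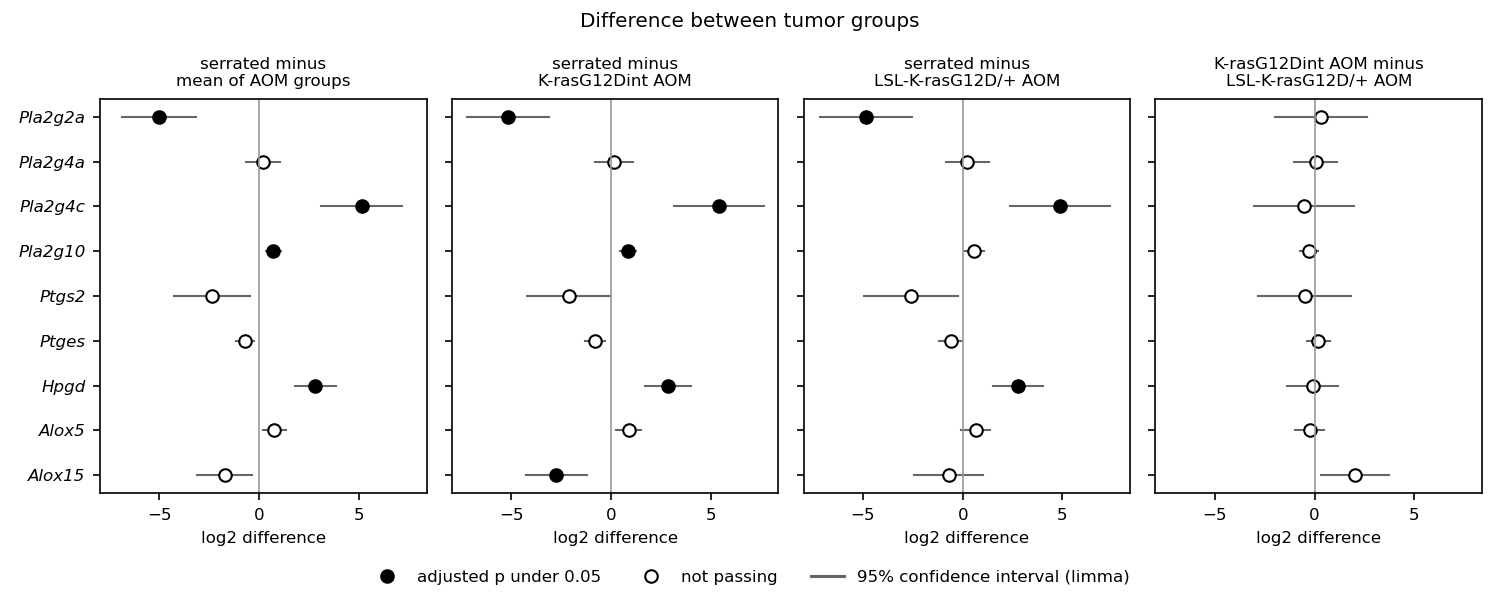
Log2 difference between tumor groups (horizontal axis) for the 9 measured genes in each comparison, with bars for the 95% interval; filled symbols have an adjusted p under 0.05 in limma. Pla2g2a (-5.01), Pla2g4c (5.14) and Hpgd (2.81) lie far from 0 in the comparison with the mean of both AOM groups, and no gene passes between the AOM groups.

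Between the AOM groups, which share treatment and colon segment and differ in K-ras genotype label, 0 of the 9 genes passed in limma, as did 0% of all genes. At an unadjusted p under 0.05 there was 1 gene, Alox15, where 8.36% of all genes reached it. Alox15 was higher in the K-rasG12Dint tumors by 2.02 ± 0.76 log2 units (95% interval 0.30 to 3.74; unadjusted p = 0.0261, adjusted p = 0.507), and all 3 of their values lay above both LSL-K-rasG12D/+ values. The shared spread includes the serrated arrays, over which Alox15 had an SD of 1.69 against 0.26 and 0.02 in the AOM groups. With only the 5 AOM arrays in the fit the adjusted p was 0.0442. Groups that did not overlap were seen for 2 of the 9 genes and for 32.1% of all genes. For Pla2g2a, Pla2g4c and Ptgs2 the intervals of the difference were wide in this fit (-1.99 to 2.62, -3.05 to 1.99 and -2.86 to 1.85). Their shared spread also includes the serrated arrays, with SDs of 2.24, 2.50 and 2.00. The SDs were 0.34, 0.33 and 1.16 in the K-rasG12Dint and 0.69, 0.33 and 0.73 in the LSL-K-rasG12D/+ tumors. The intervals thus do not show what size of change the 5 AOM arrays alone could detect. Neutrophil markers averaged 3.93 to 5.19 in the K-rasG12Dint and 3.20 to 3.68 in the LSL-K-rasG12D/+ tumors, and 0 of 8 passed. Mast cell markers lay the other way, at 3.11 to 3.60 and 3.77 to 5.15, and 0 of 9 passed. Among the serrated arrays the neutrophil list was lowest on replicate 2 (3.31 beside 3.53 and 3.50), where Alox15 was highest. The part of these cells in the level of Alox15 was not tested.

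The rest of the pathway was described from 9 lists, with the members left out. Of 82 listed genes 74 were measured, and against the mean of both AOM groups 3 rose, 9 fell and 62 did not pass. The 16.2% that passed stand beside 9.38% of all genes, and the median difference was 0.02 beside 0.04. Against the K-rasG12Dint AOM tumors 3 rose and 6 fell, against the LSL-K-rasG12D/+ AOM tumors 3 rose and 3 fell, and between the AOM groups 0 passed.

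**Figure D4:**
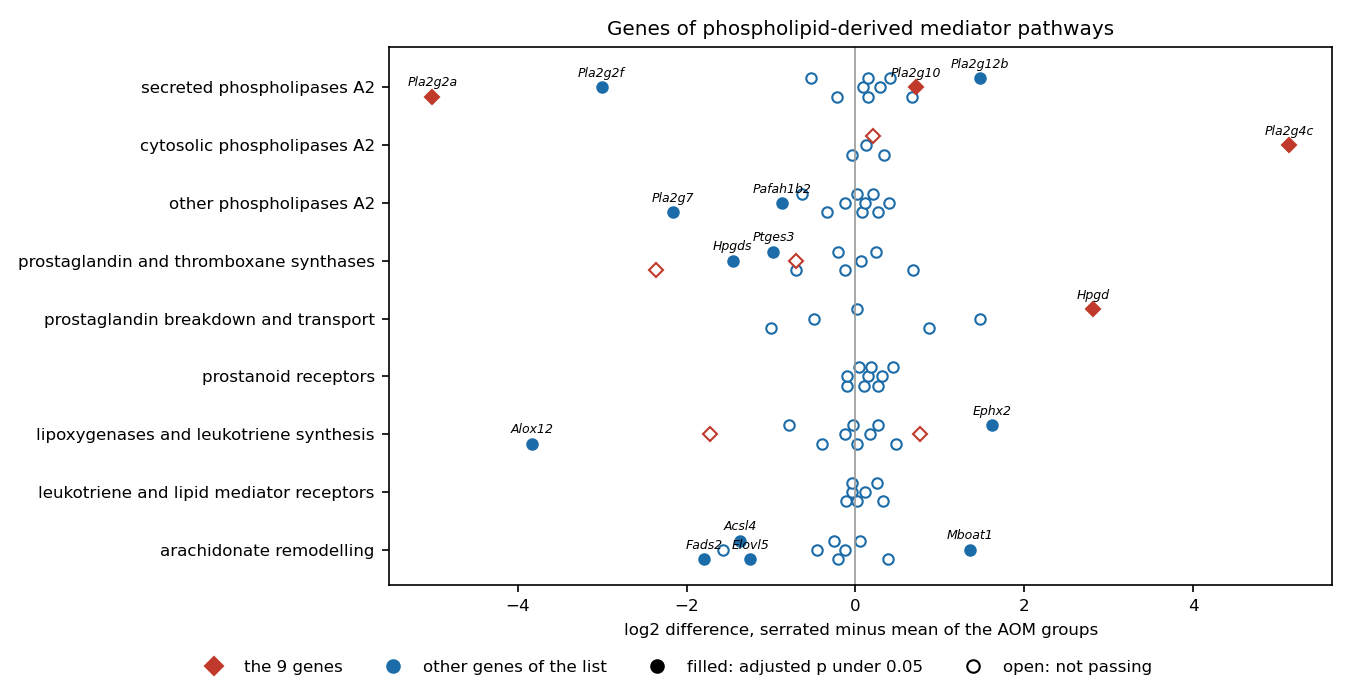
Log2 difference of the serrated tumors from the mean of both AOM groups (horizontal axis) for each measured gene of 9 pathway lists (vertical axis), with red diamonds for the 9 genes and blue circles for the other genes; filled symbols have an adjusted p under 0.05 in limma. Alox12 (-3.83), Pla2g2f (-3.01), Pla2g7 (-2.17) and Fads2 (-1.79) lie lowest among the other genes that passed, and no filled symbol stands among the receptors.

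Among 10 other secreted phospholipases 1 rose and 1 fell. Pla2g2f, which lies on chromosome 4 as Pla2g2a does, read 5.59, 6.72 and 5.48 in the K-rasG12Dint AOM tumors, 6.67 and 6.51 in the LSL-K-rasG12D/+ AOM tumors and 3.84, 3.02 and 2.91 on the serrated arrays. The groups did not overlap, and the fall was -3.01 ± 0.33 log2 units (adjusted p = 0.00132). Unlike Pla2g2a, Pla2g2f was low on all 3 serrated arrays, replicate 3 included. Pla2g12b, a relative without catalytic activity that takes part in lipoprotein secretion, rose by 1.47 ± 0.28 log2 units (adjusted p = 0.0154) from 2.56 to 3.14 on the AOM arrays to 3.64, 4.75 and 4.70 on the serrated arrays.

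Of 3 other cytosolic phospholipases 0 passed, and of 11 further phospholipases A2 2 fell. Pla2g7, the plasma enzyme that breaks down platelet-activating factor and is made by macrophages, read 7.62, 8.85 and 8.37 in the K-rasG12Dint AOM tumors, 7.23 and 6.81 in the LSL-K-rasG12D/+ AOM tumors and 4.74, 5.31 and 6.40 on the serrated arrays. It fell by -2.17 ± 0.39 log2 units (adjusted p = 0.0125), beside the fall of 5 of 8 macrophage markers given above. Pafah1b2, a catalytic subunit of an intracellular enzyme with the same substrate, fell by -0.87 ± 0.21 (adjusted p = 0.036).

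Among 8 other prostaglandin and thromboxane synthases 2 fell. Hpgds, which makes prostaglandin D2 in mast cells and macrophages, lay at 4.76 to 6.33 on the AOM arrays and at 4.47, 3.54 and 3.93 on the serrated arrays, a fall of -1.45 ± 0.31 log2 units (adjusted p = 0.0236). Ptges3, a co-chaperone also described as a cytosolic prostaglandin E synthase and read from the brightest of 3 probe sets, was at 10.1 ± 0.08 (SD, n = 5) in the AOM tumors and fell by -0.97 ± 0.24 (adjusted p = 0.036), while the dimmest of its probe sets overlapped between the groups. Of 5 other genes of breakdown and transport 0 passed. The prostaglandin transporter Slco2a1 had a mean of 7.43 in the serrated and 6.03 in the AOM tumors (difference 1.48, adjusted p = 0.0627).

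Of 9 prostanoid receptors and 7 receptors of leukotrienes and other lipid mediators, 0 passed in any of the 4 comparisons. The prostaglandin E2 receptor gene Ptger4 had a mean of 5.84 in the serrated and 5.57 in the AOM tumors (difference 0.27 log2 units, adjusted p = 0.62).

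Among 10 other genes of lipoxygenases and leukotriene synthesis 1 fell and 1 rose. Alox12, the platelet-type lipoxygenase that lies on chromosome 11 as Alox15 does, read 7.76, 7.04 and 5.63 in the K-rasG12Dint AOM tumors, 7.53 and 7.18 in the LSL-K-rasG12D/+ AOM tumors and 3.11, 4.07 and 2.58 on the serrated arrays. It fell by -3.83 ± 0.48 log2 units (adjusted p = 0.00256) with no overlap. The 4 platelet markers averaged 3.72 to 4.77 on the AOM and 3.56 to 5.02 on the serrated arrays. Among them Ppbp ran from 3.42 to 8.66 over all arrays, beside 3.59 to 4.97 for Itga2b and 3.59 to 4.47 for Pf4. The part of platelets in the level of Alox12 was not tested. The AOM groups overlapped for Alox12 and did not for Alox15. Ephx2, the soluble epoxide hydrolase that opens fatty acid epoxides, rose by 1.62 ± 0.28 (adjusted p = 0.0104). Alox5ap, the partner protein of Alox5, had means of 4.83 in the serrated and 4.97 in the AOM tumors (difference -0.12, adjusted p = 0.728).

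Among 11 genes of arachidonate supply and remodelling 3 fell and 1 rose. Fads2, the first desaturase on the way from linoleic to arachidonic acid, lay at 8.44 to 9.17 on the AOM arrays and at 7.43, 6.23 and 7.49 on the serrated arrays, a fall of -1.79 ± 0.29 log2 units (adjusted p = 0.00721). Elovl5, the elongase of the same path, fell by -1.24 ± 0.31 (adjusted p = 0.0397). Acsl4, an acyl-CoA synthetase that prefers arachidonate, fell by -1.36 ± 0.32 (adjusted p = 0.0333), although its highest serrated value, 6.40, overlapped the lowest AOM value, 6.33. Mboat1, a lysophospholipid acyltransferase, rose by 1.35 ± 0.23 (adjusted p = 0.00901). Fads1, the second desaturase, had a difference of -1.57 that did not pass (adjusted p = 0.0588).

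For the 5 members whose levels ranged over more than 2 log2 units, the 3 nearest genes were sought among all measured genes by the root mean square distance over the 8 arrays, after the mean of each gene was subtracted. Nearest to Pla2g2a were Wif1, a secreted Wnt inhibitor (1.06 log2 units), Mmp7 (1.14) and Tnfrsf11b, the gene of osteoprotegerin (1.21). All 3 were low on the serrated arrays, and none showed the partial level that Pla2g2a had on serrated replicate 3: Wif1 read 4.16 there, beside 4.22 and 3.46 on the other 2. Nearest to Pla2g4c were Fabp2, the intestinal fatty acid binding protein (1.08), Fer1l6 (1.32) and Mir680-2 (1.33). Fabp2 read 8.76, 9.60 and 8.17 on the serrated arrays, so the low Pla2g4c of replicate 3 (5.18) was not matched by it.

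Nearest to Ptgs2 were Mmp10, a stromelysin (0.51), D17H6S56E-5 (0.585) and Ereg, the gene of the growth factor epiregulin (0.617). Mmp10 read 5.35, 4.66 and 8.15 on the serrated arrays, with replicate 3 among the AOM values as for Ptgs2. Nearest to Hpgd were Cyp3a13, a cytochrome P450 (0.548), Ces2b, a carboxylesterase (0.582), and Cdhr2, a cadherin of the brush border (0.597). Nearest to Alox15 were Serpinb11 (0.353), Ifi202b (0.629) and Dsg3, a desmosomal cadherin (0.635). Serpinb11 read 6.32, 6.19 and 5.64 in the K-rasG12Dint AOM tumors, 3.24 and 3.17 in the LSL-K-rasG12D/+ AOM tumors and 1.99, 4.73 and 1.86 on the serrated arrays, so that serrated replicate 2 was the highest of its group for both genes. These distances describe 8 arrays that share 3 groups. The genes were picked for likeness over these same arrays, so a replicate that is high for both genes follows in part from the choice.

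**Figure D5:**
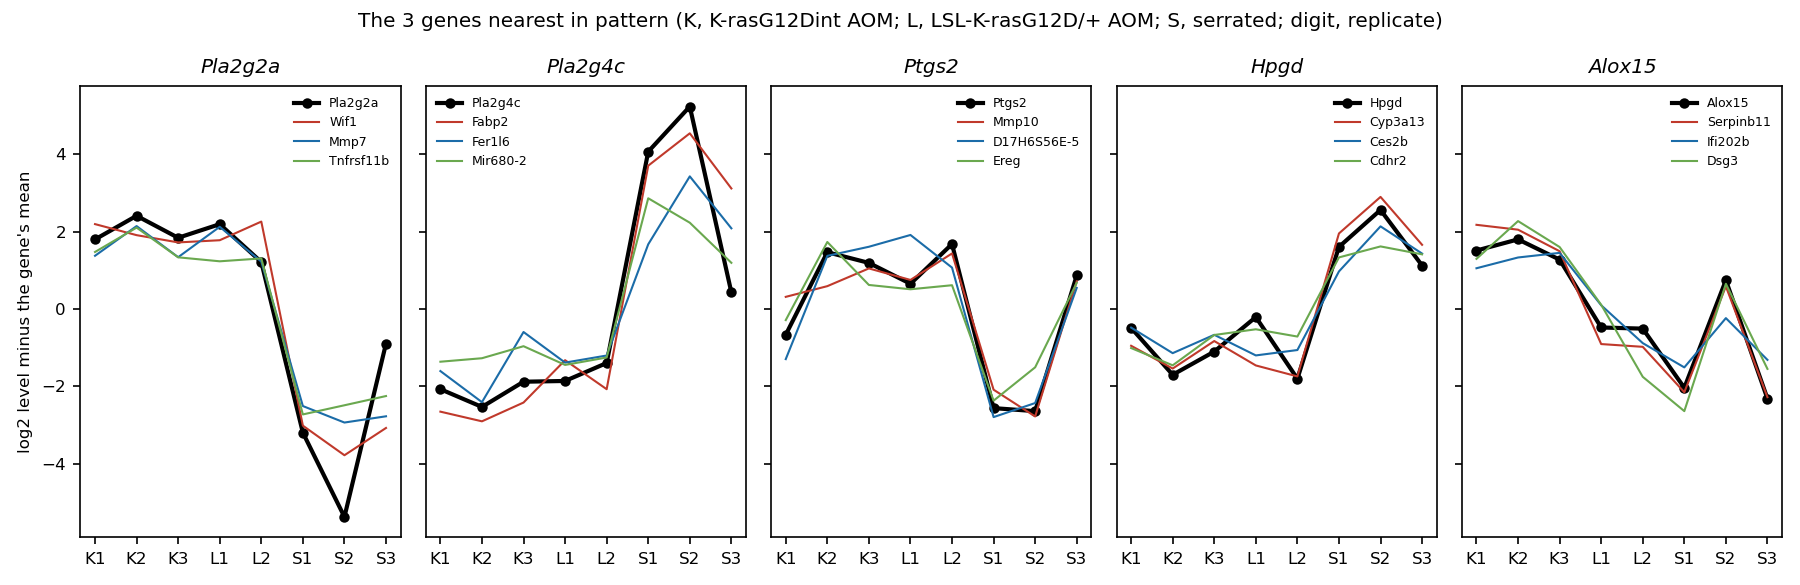
Log2 level minus the mean of the gene (vertical axis) on the 8 arrays (horizontal axis; K, K-rasG12Dint AOM; L, LSL-K-rasG12D/+ AOM; S, serrated; the digit is the replicate) for 5 members in black and their 3 nearest genes in colour. Mmp10 follows Ptgs2 up on serrated replicate 3 and Serpinb11 follows Alox15 up on serrated replicate 2, whereas the genes nearest to Pla2g2a stay low on serrated replicate 3. The nearest genes were picked for likeness over these same arrays.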

How the data were processed

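The authors deposited RMA log2 signals for 35557 probe sets on 8 arrays; per the submitters' processing notes, GCOS and RMA were used, and their versions and settings are not given in the sources used here. RNA came from a Qiagen RNeasy kit, per the labels. Probe sets with exactly 1 symbol in the platform annotation (21789) were kept, and for the 999 genes with several the one of highest mean stood for the gene, giving 19938 genes. No value was filtered or rescaled. Groups followed the genotype labels, with replicates numbered in accession order. The fit was made with limma 3.58.1 in R 4.3.3, with 3 group means, 5 residual degrees of freedom and 2-sided tests. Its single spread per gene is shared by the 3 groups, so where serrated arrays varied more (Pla2g2a, Pla2g4c, Ptgs2, Alox15), errors and p-values of the serrated comparisons are too small. The code was tested on simulated data. The members and lists were chosen with earlier results of these data known. The text names all members, up to 4 passing genes of smallest adjusted p per pathway list, up to 3 of highest mean per marker list, and the nearest genes; Trpm5, Slco2a1, Ptger4, Alox5ap, Fads1 and Cdkn2a were named outside that rule, some after their values were seen. Alternatives were an intensity trend, array weights (gene-by-gene method), leaving out the dimmest 40% of genes, centring arrays on their medians, averaging probe sets, fitting only the arrays compared, and leaving out each array. The array weights were 0.242, 3.15 and 0.38 on serrated replicates 1, 2 and 3, so that weighted serrated means rest mostly on replicate 2. Precision is limited by the number of arrays.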

Additional observations from a re-analysis of the deposited data

How the results depend on the processing

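For the serrated tumors against both AOM groups, Pla2g2a, Pla2g4c and Hpgd kept their direction in all 13 alternatives. Where each group kept at least 2 arrays they also passed in limma, with adjusted p up to 0.023, 0.0371 and 0.0354. All 13 share 1 spread per gene over the groups. For Pla2g2a and Pla2g4c, whose serrated arrays varied more, these adjusted p are therefore too small, and passing does not test that limit. Over all 36 member differences and 495 values, 417 kept direction and side of the threshold, 45 lost the call, 16 gained it and 17 changed sign. Array weights called 26, 25 and 20 other pathway genes against 12, 9 and 6 for serrated against both AOM groups, K-rasG12Dint AOM and LSL-K-rasG12D/+ AOM. They called 6 members in place of 4 in the first of these and 5 in place of 3 in the last. Over all genes they called 5759, 5677, 3670 and 58 in place of 1871, 1286, 1138 and 0, the last between the AOM groups. With only the arrays compared, 3 members passed in place of 5 against K-rasG12Dint AOM, and against LSL-K-rasG12D/+ AOM 0 members in place of 3, 2 pathway genes in place of 6 and 332 genes in place of 1138. Between the AOM groups 1 member (Alox15) and 4 genes then passed. Leaving out 1 array at a time gave 3 to 6, 0 to 6, 0 to 4 and 0 to 0 members, 4 to 17, 3 to 16, 1 to 13 and 0 to 0 pathway genes, and 643 to 3874, 390 to 3186, 176 to 2530 and 0 to 4 of all genes in the 4 comparisons. Signs changed only for differences that did not pass. With array weights Alox15 was 0.75 against LSL-K-rasG12D/+ AOM (adjusted p = 0.456), and between the AOM groups Pla2g4a was -0.0634 and Hpgd 0.0758. With 1 array left out Pla2g4a ran from -0.17 to 0.52, -0.20 to 0.49, -0.39 to 0.86 and -0.56 to 0.69 in the 4 comparisons, and between the AOM groups Pla2g2a ran from -0.18 to 0.80, Ptgs2 from -1.01 to 0.16, Hpgd from -0.89 to 0.71 and Alox5 from -0.52 to 0.0235. Where an LSL-K-rasG12D/+ array is left out, the lone array is assumed to vary like the other groups. Fewer arrays in a fit leave fewer degrees of freedom; the cause of the other shifts was not tested. Signal over background could not be judged array by array. No paired analysis was possible because the labels give no shared replicate numbers.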
